A study of Mus musculus with 2 samples.

Results

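The 10 genes described here encode alpha tubulin (Tuba1a, Tuba1b and Tuba1c) and beta tubulin (Tubb2a, Tubb2b, Tubb3, Tubb4a, Tubb4b, Tubb5 and Tubb6). They were chosen by symbol, with no measured value in the rule, though earlier results of these data were known. All 10 were found among the 43346 genes of the tables. The tissue was the central nervous system of C57BL/6J mice on embryonic day 14, sampled as 1 group of 2 biological replicates. Each replicate is a separate sample from mixed-sex littermates, and both are recorded under the same donor identifier. Stranded paired-end libraries were prepared from polyadenylated RNA above 200 nucleotides, after removal of ribosomal RNA. Replicate 1 and replicate 2 share strain, age and tissue, and no treatment or mutant was compared. With 2 replicates no p-value is given, and a spread is the standard deviation (SD) of these 2 samples.

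Alpha and beta tubulin join into a dimer, and dimers stack end to end into the hollow microtubules that form the mitotic spindle, the tracks of axonal transport and the core of cilia. Mammals carry several genes for each chain, called isotypes, whose proteins differ mostly in the acidic tail that projects from the microtubule surface. Tubb3 is the classical neuronal beta isotype, Tuba1a and Tubb2b are known for their abundance in developing brain, and mutations of the human TUBA1A, TUBB2B and TUBB3 genes cause malformations of the cortex or disorders of axon guidance. Tuba1b, Tuba1c, Tubb5 and Tubb4b are found in many dividing and non-dividing tissues, Tubb4a is enriched in mature brain, and Tubb6 is found mostly outside it.

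The mm10 gene tables held 99528934 expected counts of genes in replicate 1 and 134760822 in replicate 2. The 10 tubulin genes took 2.32% of them in replicate 1 and 2.60% in replicate 2. Neuron markers summed to 2579 TPM (a level scaled by transcript length that sums to the same total in each library) in replicate 1 and 2529 TPM in replicate 2, and markers of progenitors and radial glia summed to 2247 and 2578 TPM in the same order. Markers of tissue outside the nervous system stood apart between the replicates. Skeletal muscle markers summed to 607 TPM in replicate 1 and 12.1 TPM in replicate 2, cartilage and bone markers to 764 TPM in replicate 1 and 137 TPM in replicate 2, and skin markers to 132 TPM in replicate 1 and 14.3 TPM in replicate 2. Levels in TPM are therefore given for each replicate, and the value without replicate 1 is that of replicate 2 alone.

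All 10 isotypes were detected at 1 TPM or more in both replicates, and 8 of 10 reached 100 TPM in both. Among the 21474 protein-coding genes, 65.2% had a mean of at least 1 TPM. The median of the 10 mean levels was 1754 TPM, while the median over the detected protein-coding genes was 20.2 TPM. The isotypes spanned a wide range, from 8860 TPM on average for Tuba1a to 43.1 TPM for Tubb6.

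Tuba1a, on chromosome 15 (98949837 to 98953703, minus strand, mm10), was listed at 8422 TPM in replicate 1 and 9297 TPM in replicate 2, a mean of 8860 ± 619 TPM (SD, n = 2). It ranked 2 by mean TPM among protein-coding genes. Tuba1b, its neighbour on chromosome 15 (98931425 to 98934565, minus strand), had 1518 TPM in replicate 1 and 1545 TPM in replicate 2, and a mean rank of 56. Tuba1c, on the other side of Tuba1a on the plus strand (99029891 to 99038110), had 53.8 TPM in replicate 1 and 55.1 TPM in replicate 2. The 3 alpha genes thus lay in separate ranges with no overlap between them. The mean of Tuba1a was 5.79-fold that of Tuba1b, and the mean of Tuba1b was 28.1-fold that of Tuba1c.

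Tubb2b, on chromosome 13 (34126748 to 34130466, minus strand), was the highest beta gene, at 5795 TPM in replicate 1 and 7190 TPM in replicate 2, a mean of 6492 ± 986 TPM (SD, n = 2). Its neighbour Tubb2a (34074274 to 34078007, minus strand) had 2082 TPM in replicate 1 and 2021 TPM in replicate 2. Tubb5, on chromosome 17 (35833921 to 35838306, minus strand), had 2203 TPM in replicate 1 and 2482 TPM in replicate 2. These genes rank 3, 35 and 26 among protein-coding genes by mean TPM. Tubb3, on chromosome 8 (123411424 to 123422015, plus strand), had 1820 TPM in replicate 1 and 2133 TPM in replicate 2, a range that overlapped that of Tubb2a. Tubb2a and Tubb3 could therefore not be ordered, and Tubb5 lay above both with a gap to Tubb2a of 1.14-fold between means.

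The other beta isotypes were far lower. Tubb4b, on chromosome 2 (25222160 to 25224702, minus strand), had 346 TPM in replicate 1 and 377 TPM in replicate 2. Tubb4a, on chromosome 17 (57080066 to 57087782, minus strand), had 154 TPM in replicate 1 and 152 TPM in replicate 2. The mean of Tubb3 was 5.47-fold that of Tubb4b, and Tubb4b was 2.36-fold above Tubb4a. Tubb6, on chromosome 18 (67390717 to 67402749, plus strand), had 59.2 TPM in replicate 1 and 26.9 TPM in replicate 2, and this range included the level of Tuba1c.

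**Figure D1:**
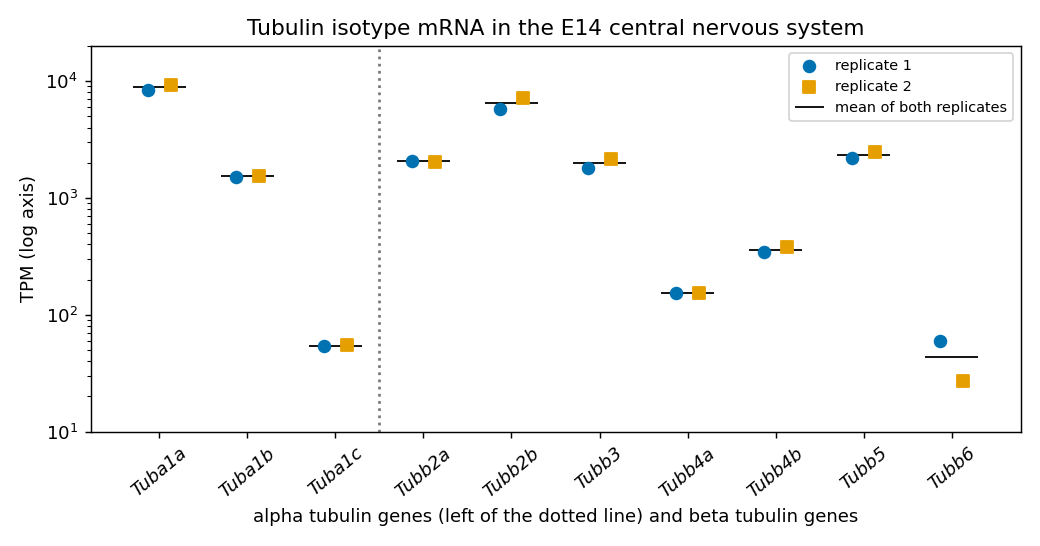
TPM (log axis) of the 10 tubulin isotypes, with a circle for replicate 1, a square for replicate 2 and a line at their mean; alpha genes stand left of the dotted line and beta genes right of it. Tuba1a and Tubb2b are the highest of each family, and Tubb6 is the gene whose replicates stand farthest apart, at 59.2 TPM in replicate 1 and 26.9 TPM in replicate 2.

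As a share of the alpha sum, Tuba1a took 84.8 ± 0.74% (SD, n = 2), Tuba1b 14.7 ± 0.72% and Tuba1c 0.522 ± 0.023%. The alpha pool was thus nearly all Tuba1a and Tuba1b. The beta sum was more evenly divided. Tubb2b took 48.3 ± 2.5%, Tubb5 17.5 ± 0.30%, Tubb2a 15.4 ± 1.9% and Tubb3 14.7 ± 0.16% (SD, n = 2), and these 4 genes together held 95.8%. The neuronal isotype Tubb3 was therefore a minor part of the beta pool in this tissue, with 14.6% in replicate 1 and 14.8% in replicate 2. Tubb4b took 2.70 ± 0.11%, Tubb4a 1.15 ± 0.12% and Tubb6 0.331 ± 0.20%. The Tubb6 share was 0.475% in replicate 1 and 0.187% in replicate 2, so its mean rests on unlike values. The shares of Tubb2b and Tubb2a, which are parts of the same sum, moved in opposite directions between the replicates. Tubb2b had 46.5% of the beta sum in replicate 1 and 50.0% in replicate 2, and Tubb2a had 16.7% and 14.1% in the same order. Their joint share was 63.2% in replicate 1 and 64.0% in replicate 2. The level of Tubb2a hardly changed, at 2082 TPM in replicate 1 and 2021 TPM in replicate 2, while the beta sum was larger in replicate 2.

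The sums of the alpha and beta isotypes were of similar size. Alpha tubulin summed to 9994 TPM and beta tubulin to 12460 TPM in replicate 1, and alpha to 10897 TPM and beta to 14382 TPM in replicate 2. The log2 ratio of alpha to beta was -0.32 in replicate 1 and -0.40 in replicate 2, a mean of -0.36 ± 0.06 (SD, n = 2), so alpha mRNA was lower than beta mRNA in both replicates. The ratio counts transcripts and not protein. Adding the 6 remaining alpha and beta genes of the tables (Tuba3a, Tuba3b, Tuba4a, Tuba8, Tubal3 and Tubb1) left it at -0.36.

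The 3 alpha genes, and Tubb2a with Tubb2b, have nearly the same coding sequence, which bears on how reads can be told apart. Within the alpha group the annotated coding sequences were 97.1% to 98.3% identical, and their translations 98.2% to 99.6%. Tuba1a and Tuba1b differed at 23 bases and 2 residues. Among the 21 beta pairs, coding identity ran from 80.2% to 96.5%, and Tubb2a with Tubb2b was the closest pair, with 47 different bases and 2 different residues. Tubb3 was closest to Tubb6, at 92.0% of residues, and its identity with the other beta isotypes was 90.7% to 91.6%. Alpha and beta translations shared only 39.7% to 41.5% of aligned residues. Each of the 10 genes has 4 exons and 3 introns, so the family can also be followed at 3 splice junctions a gene.

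The coding ends of 4 beta genes are printed because the tail they encode is acidic, is modified and differs between most isotypes. Each line below gives the last 20 codons and the stop codon, 5′ to 3′, from GENCODE M21 transcripts on mm10, with glutamate and aspartate codons in capitals.
Tubb2a, chr13:34074468-34074530, minus strand: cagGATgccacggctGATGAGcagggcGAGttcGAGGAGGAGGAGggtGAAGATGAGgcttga
Tubb2b, chr13:34127471-34127533, minus strand: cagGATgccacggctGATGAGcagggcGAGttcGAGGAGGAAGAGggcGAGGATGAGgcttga
Tubb3, chr8:123421620-123421682, plus strand: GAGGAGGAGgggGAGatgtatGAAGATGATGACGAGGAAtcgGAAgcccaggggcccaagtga
Tubb5, chr17:35834982-35835044, minus strand: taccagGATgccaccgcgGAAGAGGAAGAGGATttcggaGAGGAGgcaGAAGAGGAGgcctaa
Of the 20 codons, 10 or 11 were acidic in each of the 7 beta genes. Tubb2a and Tubb2b had 11 each, with 8 glutamate and 3 aspartate codons in both. Their printed ends differed at 3 bases and encode the same 20 residues, so the 2 residues by which these proteins differ lie elsewhere. Tubb3 has its acidic run before a serine codon and ends in a lysine codon, unlike the other beta ends shown.

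A second processing, on mm9 with Ensembl genes, gave RPKM (reads scaled by gene length and library size) in 2 fields that no label matches to a replicate, so field numbers stand for neither. The shares are compared here as means over both fields. Tuba1a stayed first of the alpha genes, with 67.5% of the mm9 alpha sum against 84.8% in mm10. Tuba1b had 21.2% in mm9 against 14.7% in mm10. Tuba1c took 11.3% in mm9 against 0.522% in mm10, a 21.6-fold larger share, and its level was 236.6 RPKM in field 1 and 214.2 RPKM in field 2. The order of the 3 alpha genes was the same in both processings, but the fold of Tuba1b over Tuba1c was 1.88 in mm9 against 28.1 in mm10.

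In the beta family, Tubb2b kept a like share, with 45.4% in mm9 against 48.3% in mm10. Tubb2a took 33.1% in mm9 against 15.4% in mm10, and moved to the second place. Tubb5 had 10.4% in mm9 against 17.5% in mm10, and Tubb3 8.82% in mm9 against 14.7% in mm10. The shares of Tubb4b (1.43%), Tubb4a (0.650%) and Tubb6 (0.180%) in mm9 lay at 0.528, 0.567 and 0.543 times those in mm10. The ratio of Tubb3 to Tubb5 was 0.846 in mm9 against 0.843 in mm10, and that of Tubb4b to Tubb4a was 2.19 in mm9 against 2.36 in mm10. The isotypes with a larger share in mm9, Tuba1b, Tuba1c and Tubb2a, all have a near-identical copy among the members, as do Tuba1a and Tubb2b, whose shares were smaller. How the mm9 processing treated reads that fit several genes is not given in the sources used here, and its part in these differences was not tested.

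**Figure D2:**
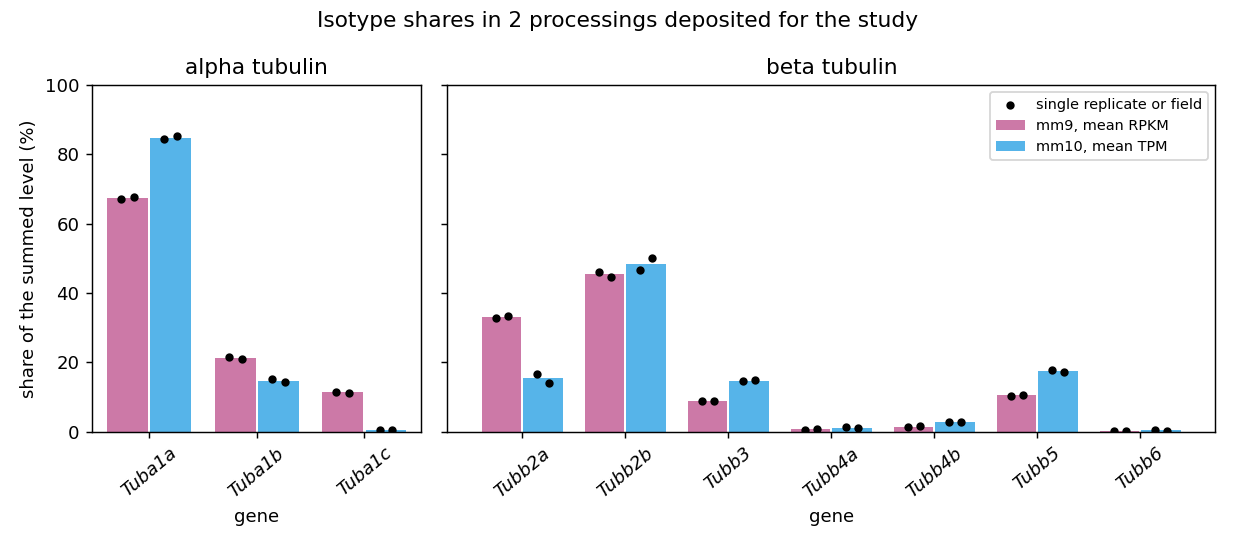
Share (%) of each isotype in the summed level of its family, with bars for the mean RPKM on mm9 (left bar of each gene) and the mean TPM on mm10 (right bar), and points for single replicates or fields. Tuba1c stands at 11.3% in mm9 and 0.522% in mm10, and Tubb2a at 33.1% in mm9 and 15.4% in mm10.

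How far reads can be assigned was read from the annotated transcripts. Each main transcript was divided into all windows of the length of 1 read, and windows found in a transcript of another gene were counted as shared. The readthrough gene Gm49450, which holds part of the Tuba1a sequence, was set aside. Shared windows made up 49.1% of Tuba1a, 65.4% of Tuba1b and 53.3% of Tuba1c. They were 36.7% of Tubb2a and 27.6% of Tubb2b, almost all of them between these genes, and 28.8% of Tubb4b, most of them with the pseudogene Tubb4b-ps1. Tubb3, Tubb4a, Tubb5 and Tubb6 had none. The isotypes thus fall into a group without shared windows and a group where a paralog or a pseudogene shares part of the transcript. This holds for single reads against annotated transcripts, and neither read pairs nor the rest of the genome were searched. The windows came from GENCODE M21, while the mm10 tables rest on GENCODE M4. Some main transcripts differ in length between them, such as that of Tuba1a, with 1803 nucleotides in M21 and 1647 in M4.

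The deposited uncertainty of read assignment was largest among the alpha genes and the Tubb2 pair. The posterior SD of the expected count was 68.8 reads for Tuba1c in replicate 1 and 83.2 reads in replicate 2, which is 1.14% and 1.00% of its counts. For Tubb2a it was 269.8 reads in replicate 1 and 338.9 reads in replicate 2, nearly the same numbers as for Tubb2b. Tubb4b, which shares windows with pseudogenes, had 1.10 reads in replicate 1 and 2.02 reads in replicate 2. The posterior SD was 0 in both replicates for Tubb4a and Tubb6 and under 1 read for Tubb3 and Tubb5. As a percentage, the assignment uncertainty in the mm10 tables was smaller than the SD of TPM between replicates for each isotype. The margin was narrowest for Tuba1c, whose TPM had an SD of 1.75% of the mean, and it may not hold in other units. The assignment uncertainty covers the quantifier's model only.

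Junction reads were counted in the mm9 junction table, summed over both fields. At the second junction, Tuba1b had 56363 reads and Tuba1c 50086 reads, and all windows across it are shared with another alpha gene. Tuba1a is among the partners of both, with 167875 reads at its second junction, where 34.9% of its own windows are shared. At the first junction, where no window is shared, Tuba1b had 1464 reads and Tuba1c 1672 reads, while Tuba1a had 217348. At the third junction Tuba1b had 17719 reads and Tuba1c 1460 reads. For Tuba1c, the first and the third junction, of which 0% and 8.14% of windows are shared, thus lay close together, and the second stood 34.3-fold above the lowest. The 3 junctions of Tuba1b spread over 38.5-fold, and those of Tuba1a over 5.51-fold, from 217348 at the first and 167875 at the second to 39434 at the third, where 65.1% of windows are shared, mainly with pseudogenes.

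As a share of the alpha reads at each junction, Tuba1a had 98.6% at the first, 61.2% at the second and 67.3% at the third. Tuba1c had 0.758% at the first, 18.3% at the second and 2.49% at the third junction. In TPM the share of Tuba1c was 0.522%, below all of these values. In mm9 RPKM it was 11.3%, between the values of the second and the third junction. Tuba1b had 0.664%, 20.5% and 30.2% at the same junctions, and its first junction lay far below its share of 14.7% in TPM. Shares at the unshared first junction thus did not follow the TPM shares in both genes, and the part of shared reads was not tested. The low count at the first junction of Tuba1b has no counterpart in shared annotated windows, and its cause was not tested.

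In the beta family, 3 of the 4 genes without shared windows gave even counts. Tubb5 had 57447, 56903 and 50531 reads at its first, the second and the third junction, a spread of 1.14-fold. Tubb4a spread over 1.27-fold, between 1430 and 1822 reads, and Tubb6 over 1.28-fold, between 527 and 676 reads. Tubb3, the other gene without shared windows, spread over 2.18-fold, with 14544, 22840 and 31671 reads from the first to the third junction. Evenness was thus closest in Tubb5, Tubb4a and Tubb6.

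Tubb2b had 193467, 64471 and 96463 reads and Tubb2a 25358, 33311 and 17104 reads at the first, the second and the third junction. None of the windows across the Tubb2a junctions is shared, nor are those across the second and the third of Tubb2b. The fold of Tubb2b over Tubb2a was 7.63, 1.94 and 5.64 at these junctions, against 3.17 in TPM and 1.37 in mm9 RPKM, so Tubb2b stood above Tubb2a in each. Tubb4b had 5889 and 7751 reads at its first and second junction and 2022 at the third, where 48.8% of windows are shared with Tubb4b-ps1.

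**Figure D3:**
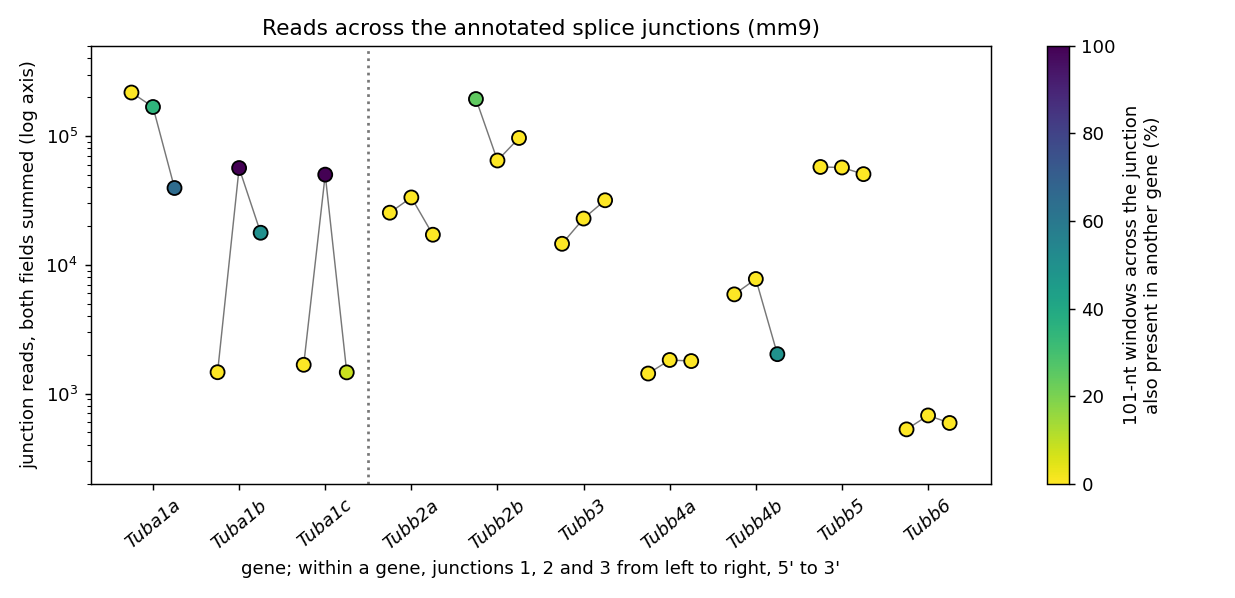
Reads (log axis, both fields summed) across the 3 annotated junctions of each isotype, ordered 5′ to 3′ within a gene, with the colour giving the percentage of read-length windows across the junction that another gene also holds. The second junctions of Tuba1b (56363 reads) and Tuba1c (50086 reads) are fully shared and stand above their other junctions, while Tubb5, Tubb4a and Tubb6 are nearly level.

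The annotated junctions of the main transcripts took 96.2% to 99.6% of all junction reads inside each member gene, with the lowest share in Tubb2a. In the mm10 transcript tables, 1 coding transcript carried nearly all the TPM of each gene. The main transcript held 99.5 ± 0.05% in Tuba1a, 95.8 ± 0.93% in Tuba1b, 97.6 ± 0.49% in Tubb4b and 95.7 ± 1.1% in Tubb5 (SD, n = 2), and the other 6 genes have 1 listed transcript. The remainder in Tuba1b was a retained-intron transcript, with 4.84% in replicate 1 and 3.52% in replicate 2. Tubb5 had 2 transcripts of this kind, with 2.67% and 1.63% in replicate 1 and 1.69% and 1.26% in replicate 2. Retained introns were thus a small part of these genes and higher in replicate 1 in each of the 3 transcripts.

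Between the replicates, 9 of 10 isotypes differed by no more than Tubb2b, which was 1.25-fold higher in replicate 2. The ratio of replicate 1 to replicate 2 was taken on expected counts scaled by TMM, a normalisation that centres the bulk of genes, with a prior count of 1. Tubb2b had 6306 CPM (scaled counts) in replicate 1 and 7854 in replicate 2, a log2 ratio of -0.32, and Tubb3 had 1919 in replicate 1 and 2258 in replicate 2, a log2 ratio of -0.23. Tubb5 had -0.19, Tuba1a -0.15 and Tubb4b -0.13. The log2 ratios of Tuba1b (-0.05), Tuba1c (-0.04), Tubb2a (0.04) and Tubb4a (0.01) were close to 0. Over the 14340 genes whose expected counts averaged 200 or more, the median log2 ratio was -0.02 and the median of its absolute value 0.15, and over the 10 isotypes these were -0.09 and 0.14.

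Tubb6 was the exception, with 58.3 CPM in replicate 1 and 26.6 in replicate 2, 2.19-fold higher in replicate 1. Of the 14340 genes, 3.95% were at least 2-fold higher in replicate 1 and 0.286% at least 2-fold lower, so 1 of 10 members was higher and 0 of 10 lower by this measure, and 3.36% of genes had a larger absolute ratio than Tubb6. Markers of skeletal muscle (8 of 8 genes, 607 TPM in replicate 1 and 12.1 TPM in replicate 2), skin (5 of 5, 132 and 14.3 TPM) and cartilage and bone (4 of 6, 764 and 137 TPM) were at least 2-fold higher in replicate 1. So were 5 of 6 markers of meninges and fibroblasts, which summed to 1231 TPM in replicate 1 and 514 TPM in replicate 2, and 3 of 6 of peripheral ganglia and Schwann cells, with 188 TPM in replicate 1 and 107 TPM in replicate 2. Globin and other red blood cell markers summed to 11792 TPM in replicate 1 and 5867 TPM in replicate 2, with 1 of the 5 that had enough counts at least 2-fold higher. Neuron markers had 0 of 10 at least 2-fold apart, with a median log2 ratio of -0.02. Markers of progenitors and radial glia also had 0 of 10. Their median log2 ratio was -0.29, and 1 of 10 was above 0, so most were lower in replicate 1. No marker named in these lists was at 0 in both replicates. The part of other tissue in the Tubb6 difference was not tested, and in tissue samples more cells of a type and more RNA per cell cannot be told apart.

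In the mm9 tables Tubb6 had 3.22 RPKM in field 1 and 7.27 RPKM in field 2, and 309 reads in field 1 and 218 in field 2 at its first junction. The higher field of Tubb6 was thus not the same in both tables, and no direction was read from the fields.

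**Figure D4:**
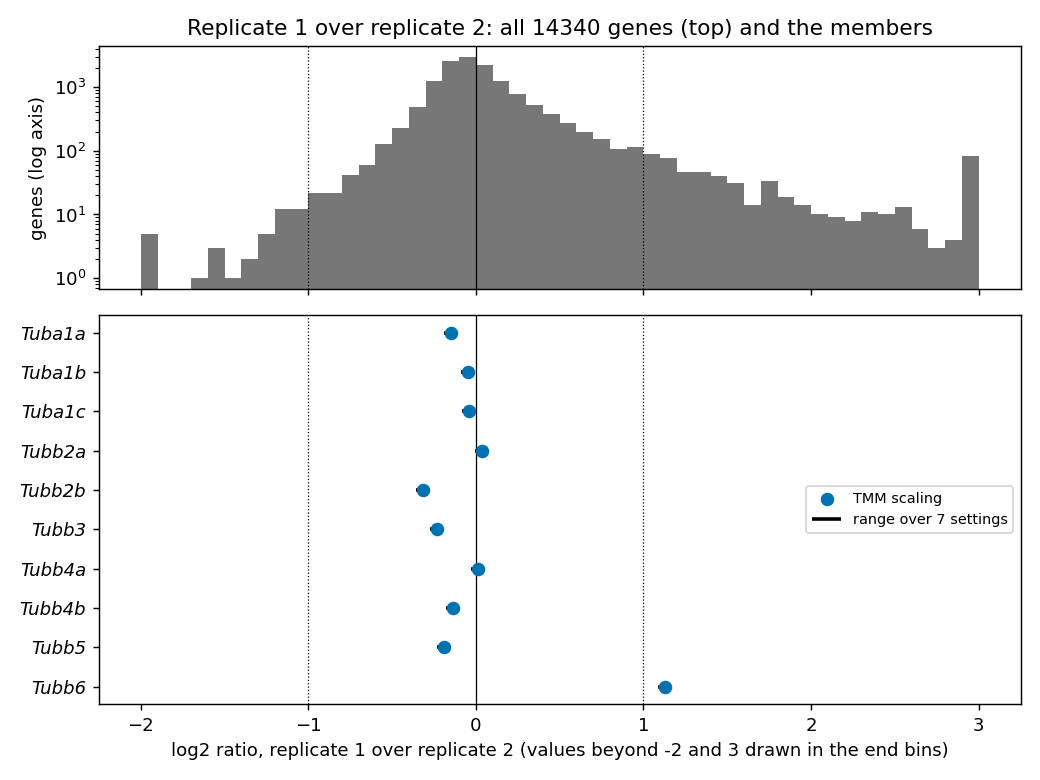
Log2 ratio of replicate 1 to replicate 2 for 14340 genes whose expected counts averaged 200 or more (upper histogram, log count axis) and for the 10 isotypes (lower panel, points with the range over 7 scalings or settings); dotted lines mark 2-fold. Tubb6 at 1.13 is the isotype past the line, and the other 9 lie between -0.32 and 0.04.

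The remaining tubulin genes were low. Of 10 such genes, 5 reached a mean of 1 TPM, with a median of 2.61 TPM. The gamma tubulins Tubg1 (27.2 TPM in replicate 1 and 25.7 TPM in replicate 2) and Tubg2 (21.3 TPM in both), which cap the minus end of microtubules, were the highest, followed by the epsilon tubulin Tube1 (6.71 TPM in replicate 1 and 7.39 TPM in replicate 2), a centriole protein. Tuba3b, a testis alpha tubulin, was the lowest, with 0 counts in replicate 1 and 1 count in replicate 2. Its copy Tuba3a has nearly the same sequence, so both values are uncertain. The 10 members summed to 22453 TPM in replicate 1 and 25279 TPM in replicate 2, against 66.3 TPM in replicate 1 and 65.2 TPM in replicate 2 for the other tubulin genes.

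Genes listed under tubulin folding and its cofactors, with related genes, were all detected. A mean of at least 1 TPM was reached by 22 of 22, where 65.2% of protein-coding genes reached it, and their median was 141 TPM. Pfdn5, a subunit of the prefoldin complex that hands new chains to the chaperonin, had 349 TPM in replicate 1 and 377 TPM in replicate 2. Cct5, a subunit of that chaperonin, had 306 TPM in replicate 1 and 353 TPM in replicate 2, and Tbca, a cofactor that binds beta tubulin, had 301 TPM in replicate 1 and 320 TPM in replicate 2. Tbcel, related to the cofactor Tbce, was the lowest, at 14.6 TPM in replicate 1 and 14.9 TPM in replicate 2. Each gene of this list thus lay below Tuba1a, Tuba1b, Tubb2a, Tubb2b, Tubb3 and Tubb5. Pfdn5 (mean of 363 TPM) was level with Tubb4b (362 TPM). Pfdn5, Cct5 and Tbca lay above Tubb4a, Tuba1c and Tubb6, as did further genes of the list, such as Cct3 (294 TPM).

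Genes of microtubule nucleation were detected in 17 of 17 cases, with a median of 28.7 TPM. Tubgcp3 (59.9 TPM in replicate 1 and 67.6 TPM in replicate 2) and Tubgcp2 (48.7 TPM in replicate 1 and 53.4 TPM in replicate 2), which build the gamma tubulin complex, were the highest, with the small complex component Mzt1 (45.3 TPM in replicate 1 and 51.7 TPM in replicate 2). Haus3, an augmin subunit that branches microtubules, was the lowest at 6.83 TPM in replicate 1 and 6.71 TPM in replicate 2. Among the related genes whose expected counts averaged 200 or more (5 other tubulin, 22 folding, 17 nucleation and 21 modification genes), 0 were at least 2-fold apart between the replicates, where 3.95% of all such genes were higher and 0.286% lower in replicate 1.

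Genes of tubulin modification were detected in 21 of 24 cases, with a median of 30.3 TPM. Atat1, the acetyltransferase of a lysine inside the microtubule, led at 419 TPM in replicate 1 and 444 TPM in replicate 2, and Sirt2, one of its counteracting deacetylases, had 104 TPM in both. Svbp, the partner that the detyrosinating vasohibins need, had 129 TPM in replicate 1 and 128 TPM in replicate 2. Agbl1, a deglutamylase of the carboxypeptidase family, was the lowest, at 0.210 TPM in replicate 1 and 0.110 TPM in replicate 2. Further genes of the cycle that removes and restores the last tyrosine of alpha tubulin were chosen after their values were seen. Vash1 had 27.5 TPM in replicate 1 and 33.6 TPM in replicate 2, Vash2 41.2 and 47.9 TPM, and the ligase Ttl, which restores tyrosine, 19.9 and 22.2 TPM in the same order of replicates. Both arms of the cycle were thus detected.

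**Figure D5:**
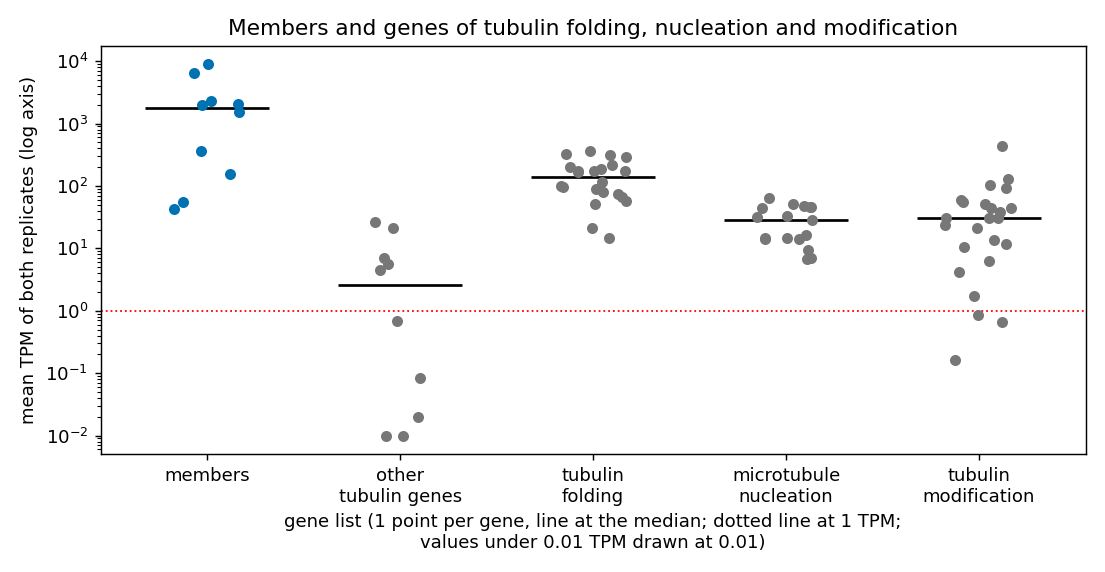
Mean TPM of both replicates (log axis) for the 10 members and 4 lists of related genes, 1 point per gene, with a line at each median and a dotted line at 1 TPM. The medians are 1754 TPM for the members, 2.61 for other tubulin genes, 141 for folding, 28.7 for nucleation and 30.3 for modification.

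With the 10 members left out of the search, the genes whose levels lay nearest to those of Tuba1a were Eef1a1, a translation elongation factor, with 6388 TPM in replicate 1 and 6414 TPM in replicate 2, the imprinted gene Nnat with 5220 and 5830 TPM, and the mitochondrial mt-Co1 with 5043 and 5805 TPM. Nearness was the Euclidean distance of log2(TPM + 1) over both replicates, and was 0.67 for Eef1a1. For Tubb3 the nearest were Rpl34 at a distance of 0.13, with 1851 TPM in replicate 1 and 1948 TPM in replicate 2, H3f3a and Rps26. Outside the members, the nearest genes to Tubb3 were thus 2 ribosomal protein genes and a histone gene, matched in level over 2 samples only.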

How the data were processed

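Per the labels, RNA of 2 biological replicates was sequenced as stranded paired-end libraries. Per the text deposited with them, the mm10 tables rest on GENCODE M4, and neither aligner nor quantifier is named in the sources used here. The deposited tables give an expected count per gene, TPM, FPKM and, per transcript, the percent of the gene's TPM. The deposited mm9 tables give RPKM for Ensembl 65 genes and a read count for each splice junction, in 2 fields without a replicate label. Other mm9 tables were not used here.

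Members were matched to GENCODE M21 by identifier (42462 of 43346 genes). The members, lists and tests were chosen with earlier results of these data known. Named are all members, the 3 highest and the lowest of each list by mean TPM, and the 3 protein-coding genes nearest to Tuba1a and Tubb3. Features named by number and spike-ins were left out of library sizes. Expected counts were rounded and scaled by TMM in edgeR 4.0.16 (R 4.3.3), and DESeq2 1.42.0 gave other size factors. With a single group no p-value is given. The calculation of the replicate ratio was checked on simulated counts with set fold changes. Total expected counts were 102727538 in replicate 1 and 138440954 in replicate 2, and 3 counts were taken as the limit behind a value of 0, for counting error only. TPM is relative to all features, spike-ins included. Transcripts were compared in windows of the read length that cross a junction by at least 8, over 141767 transcripts, with no mismatch. Identity is over aligned columns, gaps included. Python 3.11.15, pandas 2.3.3, numpy 2.4.6, Biopython 1.88 and matplotlib 3.10.9 were used. Alternatives were FPKM, expected counts, mm9 RPKM, other gene sets, scalings, prior counts (0.25 and 5), filters and each replicate alone. Some sequences of the members are not reported here.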

Additional observations from a re-analysis of the deposited data

How the results depend on the processing

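No paired analysis was possible because the study has 1 group. The first places of Tuba1a and Tubb2b kept in every alternative tried. On mm9 RPKM the shares were 67.5% for Tuba1a, 11.3% for Tuba1c, 33.1% for Tubb2a, 45.4% for Tubb2b and 8.82% for Tubb3, and the log2 ratio of alpha to beta was -0.55. On expected counts the shares were 0.638% for Tuba1c, 12.0% for Tubb2a and 13.9% for Tubb3, with a log2 ratio of -0.64. Tubb5 moved the most, to 23.4% on expected counts against 17.5% in TPM. Tubb4a moved to 1.31% and Tubb4b to 2.11%, from 1.15% and 2.70% in TPM. Counts are not divided by length. The causes of the mm9 differences were not tested. With 1 replicate left out, shares ran from 84.3% to 85.3% for Tuba1a, 0.506% to 0.538% for Tuba1c, 14.1% to 16.7% for Tubb2a, 46.5% to 50.0% for Tubb2b, 14.6% to 14.8% for Tubb3 and 0.187% to 0.475% for Tubb6, and the log2 ratio from -0.40 to -0.32. The full set of alpha and beta genes moved no share beyond its SD. FPKM is proportional to TPM within a library, so its shares are the same by construction and are no separate check. Tubb6 was the 1 member at least 2-fold apart under all 7 scalings and settings (log2 ratio 1.09 to 1.15), and Tubb2a and Tubb4a changed sign under spike-in scaling, at -0.01 and -0.03. The share of genes at least 2-fold higher in replicate 1 was 7.22% with a mean count of at least 10 and 2.19% with at least 1000, against 3.95%; the filter sets which genes are counted. Depth was not limiting for the members, of which the lowest had 3556 expected counts.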

Other observations

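The junction table listed gaps inside the Tubb2a and Tubb2b genes that are not annotated introns of the main transcripts. The most read one in Tubb2a was 34 nucleotides long, with 364 reads in field 1 and 707 in field 2. The most read one in Tubb2b had the same length, with 301 reads in field 1 and 615 in field 2. Together with a gap of 35 nucleotides in Tubb2a (414 reads), they had the largest counts outside the main transcripts' introns among the 10 members. In the other 8 members the largest junction outside the main transcript's introns had 5 to 136 reads, and introns of other transcripts were not set apart. Read counts follow the level of a gene. As a share of the gene's junction reads, the 34-nucleotide gap took 1.36% in Tubb2a and 0.255% in Tubb2b. A gap of 43 nucleotides took 0.505% in Tubb4a. Short gaps were also listed in Tuba1b (36 nucleotides) and Tuba1c (39 nucleotides), so they were not particular to the Tubb2 pair. The gaps of 34 and 35 nucleotides are shorter than any of the 30 annotated introns of the main transcripts, and their cause was not tested.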
